A study of Mus musculus with 6 samples.

Results

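The expression of Cish, of 3 other genes of the suppressor of cytokine signalling (SOCS) family and of the kinases and transcription factors around them was examined in AE9a leukemia cells from central and endosteal bone marrow. The set held 10 genes of the 54532 in the count table, taken by gene name: Cish, Socs1, Socs2, Socs3, Stat3, Stat5a, Stat5b, Jak2, Pim1 and Pim2. The set was selected on the counts of these same libraries: Cish was chosen by its difference between EBM and CBM, and the other members were placed around it with earlier results known. The values of the 10 genes in the comparison of the regions are therefore given as a description, with no test.

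AE9a is a splice form of the AML1-ETO fusion, and leukemia was raised in irradiated female C57BL/6 mice from c-Kit+ stem and progenitor cells carrying an AE9a retrovirus. The cells came from the third round of transplantation, and no drug is named for either group. Bone marrow flushed from femurs and tibias was central bone marrow (CBM), and cells released afterwards by collagenase from the same kind of bones were endosteal bone marrow (EBM), with 3 libraries of each. Cells of both groups were kept in IMDM with serum before and after sorting. Digestion was applied to EBM alone, so that an effect of the digestion and an effect of the region cannot be told apart. The labels do not say that the libraries came from separate mice, and the p-values below measure only the spread between these samples, which may be technical.

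Cytokine receptors of the hematopoietic type have no kinase of their own and work through bound Janus kinases (JAKs). After a cytokine binds, JAKs phosphorylate the receptor and then STAT proteins, which pair, enter the nucleus and bind DNA. STAT5A and STAT5B serve IL-3, GM-CSF, erythropoietin and thrombopoietin in myeloid and erythroid progenitors, and STAT3 serves IL-6 and G-CSF. Cish is a classical STAT5 target, and its protein CIS binds the activated receptor and damps the signal, as do other SOCS proteins, so that these genes form a feedback loop. Pim1 and Pim2 encode serine/threonine kinases that support survival and growth and are also induced by STATs. RNA levels of these genes do not measure the phosphorylation of a STAT.

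STAT dimers bind the letters TTCNNNGAA, and Cish carried these letters 2 times in its promoter window. The windows were the 300 bases around each annotated start from RefSeq on GRCm38.p6, and the motif reads the same on both strands. It was found at least once in 8.3% of 32851 windows and at least 2 times in 0.457%. Of the 10 members, 9 had a window and 2 of these held the motif, with 2 sites in Cish and 1 in Socs3. Among the other pathway genes listed for comparison, 69 of 94 had a window and 7 held the motif, among them Icam1 and Csf2rb2, the latter a paralog of the shared beta chain of the IL-3 and GM-CSF receptors. The stretches below show the sites of both members and of these 2 pathway genes, 5′ to 3′ on the strand of the gene, with the motif in capitals.
Cish, chr9:107296654-107296683, plus strand: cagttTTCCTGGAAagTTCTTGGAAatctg
Socs3, chr11:117969501-117969530, minus strand: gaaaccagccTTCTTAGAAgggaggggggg
Icam1, chr9:21015888-21015917, plus strand: ggcgcgaggtTTCCCGGAAagtggccccga
Csf2rb2, chr15:78305717-78305746, minus strand: gtgtccacaaTTCTGAGAAgcaagcaaagc

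The 2 sites of Cish began at bases 1 and 12 from the RefSeq start, and lay in the 5′ UTR of 1 annotated transcript. The site of Socs3 began 154 bases before the start, in an intron of another transcript. A match of letters is a description and not evidence of binding. Among the 44 tested genes other than Cish that held it 2 or more times, EBM was higher for 21 and lower for 23. Their log2 fold changes had a median of -0.0037, beside 0.0038 over all 9066 tested genes with a window. None of the 44 passed edgeR's adjusted threshold, and 4 genes in each direction had an unadjusted p under 0.05. That is 9.09% each way, beside 4.1% higher and 3.86% lower of the 9066 genes, and no test was made of this difference.

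Counts per library were between 16436526 and 19462964, and a floor of 3 counts stood for 0.154 to 0.183 CPM (counts scaled to the library size, with TMM factors), which covers counting error only. All 10 members were among the 13352 genes that passed the filter on low counts. Of the markers of leukemic progenitors, 10 genes summed to 1665 to 2391 CPM, carried by Gata2 at 700 to 1174 CPM and Runx1 at 330 to 722 CPM, with Myb and Kit also at 196 CPM or more in every library. Cd34 was as low as 1.16 CPM and Mpo as low as 1.65 CPM, and Hoxa9 and Cebpa stayed under 1 CPM in every library. All 8 osteoblast markers, all 6 stromal markers and all 6 T cell markers were under 1 CPM in every library, with Sp7, Alpl, Dmp1 and Lum at 0. B cell markers summed to 6.81 to 14.5 CPM, endothelial markers to 0.964 to 3.37 CPM and macrophage markers to 1.31 to 4.40 CPM. Erythroid markers summed to 2037 to 5434 CPM and mast cell markers to 938 to 1592 CPM. In such bulk samples, fewer cells of a type and less RNA per cell cannot be told apart.

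Cish, the feedback inhibitor of the STAT5 pathway (chr9:107296026-107302784, plus strand), had the most regular difference of the 10 genes. Its level was 96.1, 100.2 and 97.0 CPM in CBM 1 to 3 and 147.6, 157.3 and 156.4 CPM in EBM 1 to 3. All EBM libraries lay above all CBM libraries, and the gap between the groups was wider than the range within either. EBM averaged 154 ± 5.34 CPM against 97.7 ± 2.15 CPM for CBM (SD, n = 3 per region), a 1.57-fold ratio, and the log2 fold change was 0.65 ± 0.08 (SE). The counts behind these values were 1689 to 1954 in CBM and 2434 to 2825 in EBM. The coefficient of variation was 2.20% in CBM and 3.47% in EBM, the smallest among the 10 genes in each region. With any single library left out, the log2 fold change stayed between 0.63 and 0.68. A pseudogene on the other strand, Gm17040, overlaps Cish by 1167 bases and had 6 to 19 counts.

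**Figure D1:**
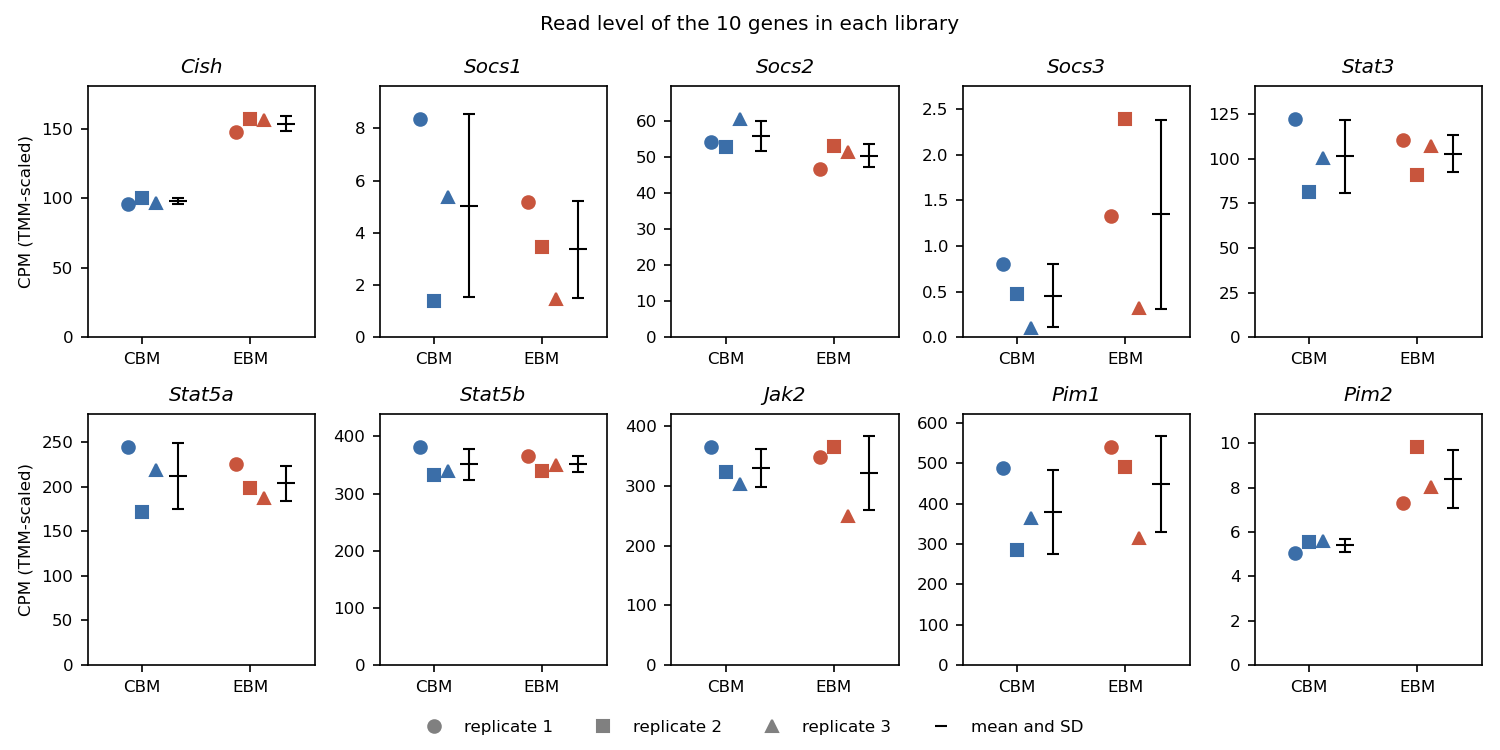
Each panel shows 1 of the 10 genes, with the level of every library in CPM on a linear axis from 0 (CBM in blue, EBM in red, symbols for the replicate number) and the mean with its SD (n = 3) beside the points. The regions are apart for Cish, at 96.1 to 100.2 CPM against 147.6 to 157.3 CPM, and for Pim2, and overlap for the other 8 genes.

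The 3 other SOCS genes did not share the pattern of Cish. Socs2, which restrains growth hormone and other STAT5-activating receptors (chr10:95385362-95417180, minus strand), stood at 54.0, 52.7 and 60.5 CPM in CBM and 46.7, 53.1 and 51.3 CPM in EBM. Its groups overlapped, because EBM 2 lay above CBM 2, and its log2 fold change was -0.15 ± 0.10 (SE).

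Socs1, an inhibitor of JAKs that limits interferon signalling (chr16:10782240-10785536, minus strand), was low and uneven at 8.36, 1.37 and 5.36 CPM in CBM and 5.19, 3.45 and 1.48 CPM in EBM. Both the highest and the lowest library were CBM libraries, 6.11-fold apart, which is as wide as the range over all 6 libraries. The log2 fold change of -0.57 ± 0.68 (SE) moved between -1.02 and 0.01 as single libraries were left out.

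Socs3, the inhibitor induced by STAT3 that binds gp130 and the G-CSF receptor (chr11:117966079-117970047, minus strand), was close to the limit of detection. Counts of 14, 9 and 2 were found for the CBM libraries and 24, 43 and 5 for the EBM libraries, which correspond to 0.797, 0.474 and 0.099 CPM and to 1.32, 2.39 and 0.321 CPM. CBM 3 lay below the floor of 3 counts, EBM 3 lay within the CBM range, and the log2 fold change was 1.58 ± 0.85 (SE), between 0.87 and 2.23 with single libraries left out. Neutrophils are a cell type in which G-CSF induces this gene, and the summed level of the 6 neutrophil markers was 7.80, 223 and 3.32 CPM in CBM and 49.0, 160 and 34.3 CPM in EBM. It was highest in CBM 2 and EBM 2, and its part in the Socs3 values was not tested.

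Per gene length, Cish made up most of the RNA of these 4 SOCS genes in every library. Its share of their summed TPM (counts per base of gene length, scaled to the same total in every library) was 62.9%, 71.7% and 64.7% in CBM and 76.3%, 76.4% and 80.2% in EBM. Socs2 held 16.3% to 27.2%, Socs1 1.67% to 12.1% and Socs3 0.147% to 2.58%. These shares rest on the deposited lengths, at 9531 bases for Socs2 and 6419 for Cish, against longest annotated transcripts of 4242 and 4697. Per kilobase of the longest transcript, the mean levels over the 6 libraries were 26.8 CPM for Cish and 12.5 CPM for Socs2. The size of the shares therefore depends on the length used. The EBM shares of Cish lay above the CBM shares, and since these shares rest on the same Cish counts they add nothing to the comparison above.

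**Figure D2:**
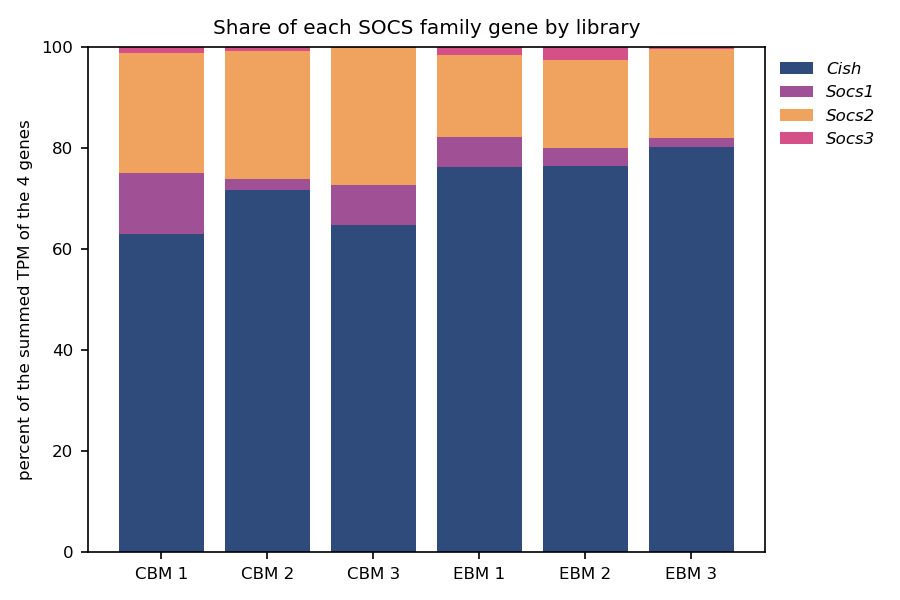
Stacked bars give, for each of the 6 libraries, the percent of the summed TPM of Cish, Socs1, Socs2 and Socs3 that each gene held. By the deposited gene lengths, Cish takes 62.9% to 71.7% in CBM and 76.3% to 80.2% in EBM, and Socs2 most of the remainder.

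The STAT genes and Jak2 were abundant and differed little between the regions. Stat5b (chr11:100780731-100850724, minus strand) stood at 382, 332 and 340 CPM in CBM and 366, 339 and 350 CPM in EBM, with a log2 fold change of 0.00 ± 0.10 (SE). Stat5a (chr11:100859351-100885169, plus strand) stood at 245, 172 and 219 CPM in CBM and 226, 199 and 187 CPM in EBM, with a log2 fold change of -0.06 ± 0.15 (SE). In both genes the EBM values lay inside the CBM range. By the deposited gene lengths, Stat5b held between 66.7% and 71.3% of the summed TPM of the pair. Those lengths were 7133 bases for Stat5a and 5539 for Stat5b, against longest annotated transcripts of 3958 and 5213 bases. Per kilobase of the longest transcript, the mean levels over the 6 libraries were 52.5 CPM for Stat5a and 67.4 CPM for Stat5b. The share therefore depends on the length used.

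STAT5A and STAT5B are close paralogs whose genes lie 8626 bases apart on chromosome 11, on opposite strands. Their transcripts share an identical run of 324 bases over 3 exons of the coding sequence. A read pair that lies wholly within the run cannot be assigned to either gene. The first 60 bases of the run lie within a single exon of each gene, and the letters are the same in both.
Stat5a, chr11:100874023-100874082, plus strand: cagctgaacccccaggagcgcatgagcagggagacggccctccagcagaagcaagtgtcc
Stat5b, chr11:100798642-100798701, minus strand: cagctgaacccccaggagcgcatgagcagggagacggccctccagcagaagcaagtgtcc

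The shared part was small at the length of the reads. Of all stretches of 150 bases, 2.21% of those of Stat5a and 3.16% of those of Stat5b occurred in the other gene. With the counts of the pair summed, the log2 fold change was -0.02 ± 0.11 (SE).

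Stat3 (chr11:100885098-100939540, minus strand) overlaps the end of Stat5a by 72 bases on the other strand, and reads there are uncertain because the use of strand in counting is not given in the sources used here. It stood at 122, 81.5 and 100 CPM in CBM and 111, 91.1 and 107 CPM in EBM, again with the EBM values inside the CBM range and a log2 fold change of 0.02 ± 0.16 (SE). Jak2, the kinase bound to the receptors of erythropoietin, thrombopoietin, IL-3 and GM-CSF (chr19:29251828-29313080, plus strand), stood at 365, 323 and 303 CPM in CBM and 348, 366 and 250 CPM in EBM. EBM held both its highest and its lowest library, and the log2 fold change was -0.04 ± 0.16 (SE). The direction of Stat3, Stat5a, Stat5b and Jak2 turned when single libraries were left out.

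Pim2 (chrX:7878262-7883432, plus strand) was, after Cish, the other member with no overlap between the regions. CBM gave 89, 105 and 113 counts and EBM 132, 177 and 125, or 5.06, 5.53 and 5.61 CPM and 7.29, 9.85 and 8.03 CPM. EBM averaged 8.39 ± 1.32 CPM against 5.40 ± 0.293 CPM for CBM (SD, n = 3 per region), a 1.55-fold ratio with a log2 fold change of 0.64 ± 0.18 (SE). Single libraries left out moved it between 0.50 and 0.73.

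Pim1, the most abundant member (chr17:29490812-29496111, plus strand), stood at 489, 284 and 364 CPM in CBM and 542, 490 and 314 CPM in EBM. EBM 3 lay below 2 of the CBM libraries, and the log2 fold change was 0.24 ± 0.26 (SE). Pim1 held 97.6% to 99.0% of the summed TPM of the pair, so that the RNA of the PIM pair as a whole followed Pim1. The lincRNA Gm26885 overlaps Pim1 on the other strand and had 6 to 21 counts. Non-overlapping regions were thus seen in 2 of 10 members, both with EBM above CBM. Over all 13352 genes tested, EBM lay above CBM without overlap in 7.47% and below it in 7.65%, or 15.1% in either direction. Because the members were placed around Cish with this contrast known, nothing is read from the count.

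**Figure D3:**
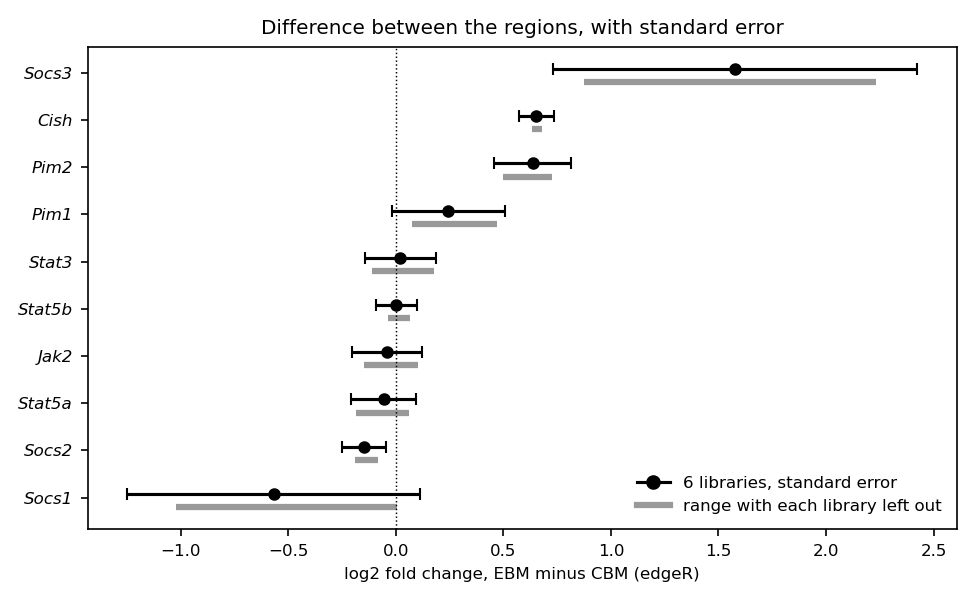
Points give the log2 fold change of EBM minus CBM for the 10 genes with its standard error from edgeR, and grey bars below them the range when each of the 6 libraries is left out in turn. Cish at 0.65 has the narrowest grey bar of the genes away from 0, Socs3 at 1.58 and Socs1 at -0.57 have wide ones, and those of the STAT genes and Jak2 cross 0.

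Compared per length, in TPM, the genes ran from Pim1 down to Socs3, with some neighbours changing places between libraries. Pim1 lay at 335 to 609 TPM, above Jak2 at 140 to 230 TPM and Stat5b at 178 to 219 TPM. Jak2 and Stat5b did not differ beyond their spread, with Jak2 above in 4 of 6 libraries. Stat5a followed at 73.9 to 109 TPM and Cish at 47.4 to 74.8 TPM. Their ranges over all libraries overlapped, although Stat5a was above Cish in 6 of 6 libraries.

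Stat3 at 26.6 to 40.7 TPM and Socs2 at 14.5 to 20.5 TPM were each apart from their neighbours. Pim2 at 5.74 to 10.8 TPM and Socs1 at 1.43 to 9.11 TPM overlapped, with Pim2 above in 5 of 6 libraries, and Socs3 was lowest at 0.111 to 2.53 TPM. The gene length deposited with the counts exceeded the longest annotated transcript for several members, at 6419 against 4697 bases for Cish and 9531 against 4242 bases for Socs2. With the longest transcript as the length, only Jak2 and Stat5b changed places in the order.

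**Figure D4:**
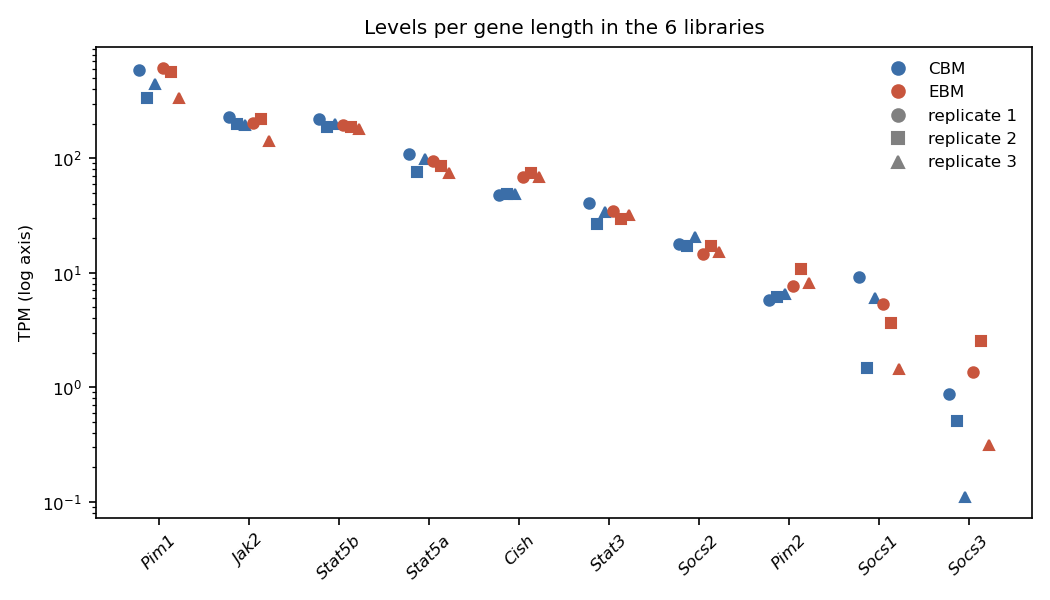
Each point is the TPM of a gene in 1 of the 6 libraries, on a log axis. CBM is in blue and EBM in red, with symbols for the replicate number and the genes ordered by their mean TPM. Levels run from 335 to 609 TPM for Pim1 down to 0.111 to 2.53 TPM for Socs3, and Socs1 and Socs3 have the widest spread.

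The members also differed in which libraries were high. Pearson correlations of log2 CPM over the 6 libraries are given as a description, since the genes share the libraries, their depth and their scaling. Socs1 ran with Stat5a (r = 0.97) and with Pim1 (r = 0.79), each of them low in CBM 2 and EBM 3. Stat3 ran with Stat5b (r = 0.92) and Stat5a (r = 0.82). Cish ran with Pim2 (r = 0.94, and 0.74 after the mean of each region was taken out). Between Cish and Stat5a r was -0.22 over all libraries and -0.83 within the regions. The coefficient of variation of Cish was only 2.20% in CBM and 3.47% in EBM, and Pim2 had 89 to 177 counts. The within-region values of r for Cish thus rest on small differences over few libraries, and nothing is read from them.

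Of all genes tested, those with the pattern most like Cish over the 6 libraries were Yju2, Kat5, Gm10250, Nudc-ps1 and Coq10b, with r between 0.991 and 0.9996. After the mean of each region was taken out, r was 0.97 for Yju2, 0.76 for Kat5, 0.82 for Gm10250, 0.74 for Nudc-ps1 and 0.71 for Coq10b. Kat5 encodes an acetyltransferase and Coq10b a coenzyme Q binding protein. Their differences were of other sizes, with a log2 fold change of 0.21 in Yju2, 0.29 in Kat5, 0.51 in Gm10250, 0.33 in Nudc-ps1 and 0.99 in Coq10b. For Socs3 they were Brox, Gm12840, Gm3435, Nsmce2 and Hdac5, with r between 0.959 and 0.989. Each list holds the highest of 13352 values of r over 6 points, and no test was made of it.

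The other genes of the pathway were tested in the fit over all genes. They formed 8 lists of 94 genes, of which 64 passed the filter and 5 had no counts at all. None of the 64 passed edgeR's quasi-likelihood test at a Benjamini-Hochberg adjusted p of 0.05, as for the 13352 genes as a whole (0%). An unadjusted p under 0.05 was found for 7 genes with EBM higher, beside 4.01% of all genes, and 2 with EBM lower, beside 3.9%, or 7.91% of all genes in either direction. By DESeq2, which without the filter entered 89 pathway genes, 3 of these and 175 genes in all passed the adjusted threshold. On the genes that passed the filter DESeq2 gave 3 and 201. EBM had the higher value for 45 of the 64 genes and the lower value for 19, beside 6726 and 6626 of all 13352 genes. Their median log2 fold change was 0.10 beside 0.0017 over all genes. The lists were drawn up with earlier results of these data known, so nothing is read from the counts of direction here or list by list below.

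Of the 17 ligands only 4 passed the filter, and Il3, Epo, Prl and Gh had no counts. Il6, the main ligand upstream of STAT3, was uneven at 6.20, 0.316 and 0.546 CPM in CBM and 11.4, 10.5 and 0.707 CPM in EBM, with a log2 fold change of 1.69 ± 1.26 (SE). Osm, a cytokine of the IL-6 family and itself a STAT5 target, averaged 24.5 ± 6.85 CPM over CBM and 29.1 ± 5.99 CPM over EBM (SD, n = 3). Lif, of the same family, was at or under 4.15 CPM in every library, and Flt3l, the ligand of the FLT3 receptor, stood at 38.0 to 50.3 CPM and 33.2 to 37.9 CPM.

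Of the 24 receptors 12 passed the filter, 9 with a higher and 3 with a lower value in EBM, and Prlr had no counts. Il6ra and Il6st, which encode the IL-6 receptor and gp130, did not pass and reached at most 0.948 and 0.891 CPM in any library. Csf2rb, the shared beta chain of the IL-3, IL-5 and GM-CSF receptors, was among the most abundant at 334 to 1059 CPM in CBM and 384 to 876 CPM in EBM. Its log2 fold change was 0.03 ± 0.46 (SE), and that of the near-identical Csf2rb2, with which it may share reads, was 0.13 ± 0.77 (SE). Epor, the erythropoietin receptor, stood at 94.6, 209 and 125 CPM in CBM and 81.8, 85.2 and 161 CPM in EBM. Il2rg (0.36 ± 0.28), Il10ra (-0.56 ± 0.93) and Ifngr1 (0.61 ± 0.27) had no adjusted p under 0.65.

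Among the other JAKs and STATs 6 of 7 passed the filter, 4 of them with a higher value in EBM. Stat6, the STAT of IL-4 and IL-13, stood at 157, 164 and 160 CPM in CBM and 194, 188 and 196 CPM in EBM, with no overlap. Its log2 fold change was 0.27 ± 0.08 (SE), with an adjusted p of 0.439 in edgeR. Jak1, which serves interferon and gp130 receptors, differed by 0.16 ± 0.08, Tyk2 by 0.12 ± 0.11 and Stat2 by -0.03 ± 0.15 on the log2 scale.

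Of the 4 remaining SOCS genes 3 passed the filter. Socs4 stood at 62.3, 62.3 and 64.0 CPM in CBM and 83.5, 81.1 and 67.9 CPM in EBM, with a log2 fold change of 0.30 ± 0.10 (SE) and an adjusted p of 0.546 in edgeR. Socs6 and Socs7 differed by -0.22 ± 0.13 and 0.07 ± 0.14 and overlapped. Among 13 phosphatases, PIAS proteins and other brakes, 11 had a higher value in EBM. Ptpn2, a phosphatase that acts on JAK1, JAK3 and STATs, was at 60.9 to 74.6 CPM in CBM and 78.1 to 94.4 CPM in EBM, a log2 fold change of 0.42 ± 0.12 (SE) with an adjusted p of 0.44 in edgeR. Ptpn6, Ptpn11, Pias1, Pias2 and Pias3 lay between -0.12 and 0.16 on the log2 scale.

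Of the other STAT5 targets 6 of the 11 tested had a higher and 5 a lower value in EBM. Mcl1, a survival factor of the BCL2 family, stood at 244, 227 and 228 CPM in CBM and 307, 323 and 272 CPM in EBM, and Pim3, the third PIM kinase, had a log2 fold change of 0.51 ± 0.20 (SE). Neither passed, with adjusted p-values of 0.404 and 0.596 in edgeR. Myc, a growth regulator induced by many cytokines, was on the other side at 133, 108 and 137 CPM in CBM and 53.8, 51.3 and 52.8 CPM in EBM. Its log2 fold change was -1.26 ± 0.11 (SE) and its adjusted p was 0.0583 in edgeR, the lowest adjusted value over the 13352 genes. The Benjamini-Hochberg adjustment can give several genes the same value, so this does not place Myc first by unadjusted p. Id1, an inhibitor of helix-loop-helix factors, had a log2 fold change of -0.98 ± 0.29 (SE), and Ccnd2 and Tfrc overlapped between the regions.

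Of the STAT3 targets 9 of the 10 tested had a higher value in EBM, beside 6726 of all 13352 genes. The median log2 fold change of the STAT3 targets was 0.35, beside 0.0017 over all genes. Bcl3, an IkB family protein, stood at 4.15, 2.26 and 2.63 CPM in CBM, and over EBM it averaged 17.2 ± 7.45 CPM (SD, n = 3) with the lowest library at 10.1 CPM, a log2 fold change of 2.51 ± 0.40 (SE). Icam1, an adhesion molecule, stood at 107, 78.0 and 54.1 CPM in CBM and 239, 270 and 196 CPM in EBM, a log2 fold change of 1.56 ± 0.26 (SE). The adjusted p was 0.17 for each in edgeR, and both genes are also known targets of NF-kB. Junb, an AP-1 subunit that is also on the digestion list, differed by 0.52 ± 0.23 and Il4ra by -0.08 ± 0.16.

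Among 6 substrates and partners of the PIM kinases 3 had a higher and 3 a lower value in EBM. Cdkn1a, the cell cycle inhibitor p21, differed by 0.90 ± 0.50 (SE) and overlapped, and Cdc25a, a phosphatase that drives cell cycle entry, by -0.24 ± 0.13. Bad, Eif4ebp1 and Akt1s1 lay between -0.04 and 0.06 on the log2 scale.

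**Figure D5:**
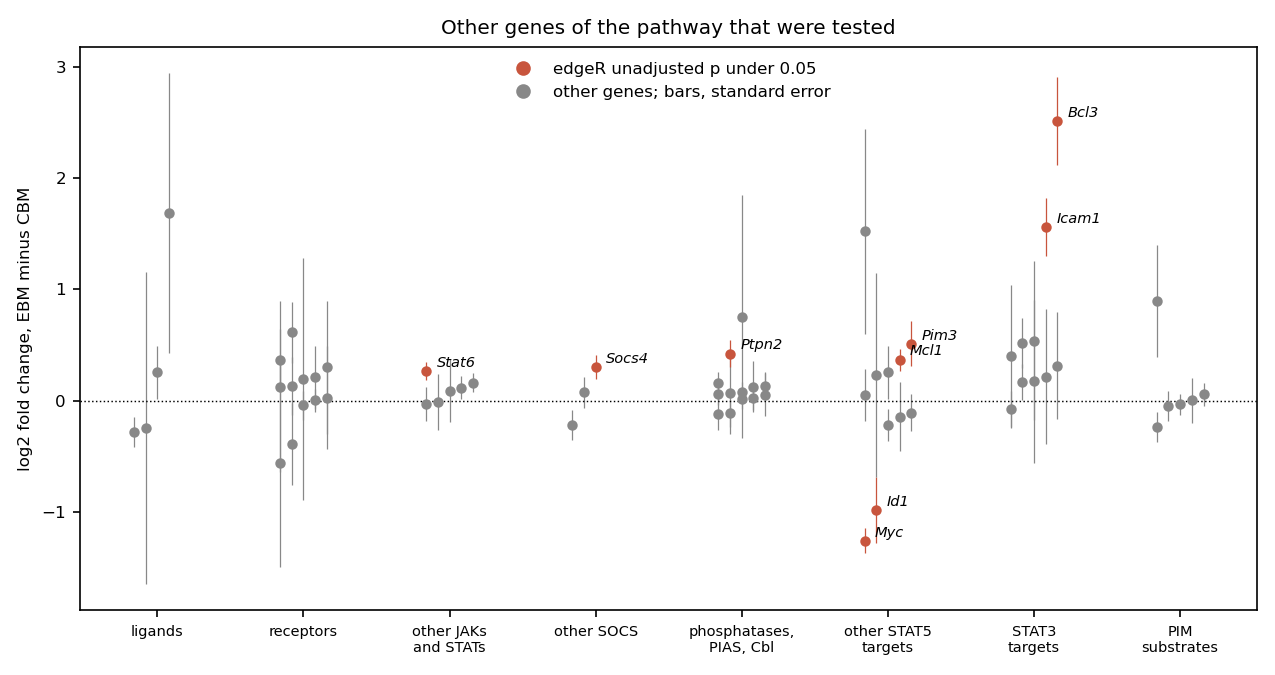
Each point is the log2 fold change of EBM minus CBM of 1 tested gene in the 8 pathway lists, with its standard error, and genes with an unadjusted edgeR p under 0.05 are in red and named. The named genes are 7 above 0, led by Bcl3 at 2.51 and Icam1 at 1.56, and 2 below 0, Id1 at -0.98 and Myc at -1.26.

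Genes known to be induced by tissue dissociation were higher on balance in EBM. Those with the largest difference were the heat shock genes Hspa1a and Hspa1b, near-identical copies that may share reads. Hspa1a had 2 counts in each CBM library and 53, 50 and 22 in EBM, and Hspa1b stood at 9.50, 3.74 and 3.37 CPM in CBM and 112, 50.3 and 58.6 CPM in EBM. Both separated the regions, with log2 fold changes of 4.40 ± 0.46 and 3.74 ± 0.52 (SE) and adjusted p-values of 0.108 and 0.121 in edgeR. The summed level of all 20 genes, which is carried by Fosb, Hspa8, Nfkbia, Hsp90aa1 and other abundant ones, was 14918, 10771 and 8140 CPM in CBM and 15369, 13606 and 15107 CPM in EBM, and 15 of the 20 had a higher value in EBM. Of the 5 with a lower value, Dusp1 stood at 1329, 764 and 595 CPM in CBM and 382, 447 and 400 CPM in EBM. Its regions did not overlap, and its log2 fold change was -1.13 ± 0.29 (SE). Fos, also lower, differed by -1.31 ± 0.74 (SE) and overlapped. None of the 20 passed edgeR's adjusted threshold. An unadjusted p under 0.05 was found for 6 higher and 1 lower, beside 4.01% and 3.9% of all genes, and the median log2 fold change was 0.47 beside 0.0017 over all genes. The part of these genes' response in the Cish values was not tested.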

How the data were processed

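RNA-seq libraries of AE9a leukemia cells, 3 from CBM and 3 from EBM, were grouped by their labels. The authors deposited raw counts per gene with a gene length. Libraries were directional, sequenced as paired-end reads; per the labels, submitters' processing notes name HISAT2 2.0.5 and mm10, and the counting tool and its use of strand are not given in the sources used here. Of the 10 members, 9 have the same start and end in GENCODE M21.

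Genes were kept by filterByExpr and tested in R 4.3.3 with edgeR 4.0.16 (TMM, quasi-likelihood F-test, Benjamini-Hochberg adjustment over 13352 genes, 0.05). The standard error is the log2 fold change divided by the square root of F. Log2 CPM for correlations used a prior count of 2. TPM came from the counts and the deposited lengths. Methods were tested on simulated data. Alternatives were DESeq2 1.42.0, limma-voom (limma 3.58.1), other size factors, other filters, the replicate number as a block, each library left out and, added after seeing the data, DESeq2 on the filtered genes, Stat5a and Stat5b summed and the longest transcript as length. Promoter windows come from RefSeq on GRCm38.p6.

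The members and the lists were chosen with earlier results of these data known. Genes named are the members; per list, the 2 of lowest p among those higher and among those lower, and the 3 of highest mean TPM; the 5 genes most like Cish and the 5 most like Socs3; and list genes without counts. A gene that this rule names is not reported here.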

Additional observations from a re-analysis of the deposited data

How the results depend on the processing

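The log2 fold changes of Cish, Socs2, Socs3, Pim1 and Pim2 kept their sign in all 13 alternatives. The sign turned in 1 alternative for Socs1 and Stat5a, in 2 for Jak2, in 3 for Stat3 and in 7 of 14 for Stat5b, in each case by less than the spread between libraries. The number of genes past the adjusted threshold, 0 in edgeR, depended on the test and the filter: DESeq2, which changed the test and entered 24771 genes without the filter, gave 175 (131 higher and 44 lower in EBM), DESeq2 on the filtered genes, added after seeing the data, gave 201 (140 higher and 61 lower), and edgeR with no filter gave 40 (38 higher and 2 lower). Of the pathway genes each of these gave 3, with Bcl3 and Icam1 higher and Myc lower, where edgeR gave 0. The cause was not tested. The counts were 0 whichever library was left out, both over all genes and over the pathway genes. With the longest transcript as length, 2 members changed rank, which are Jak2 and Stat5b, and with FPKM 0 did. With 1 more free letter in the middle of the motif, or with at least 1 site, the median log2 fold change of the genes lay between 0.0058 and 0.0262.

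With the replicate number as a block, 0 genes passed over all genes (1203 at an unadjusted p under 0.05) and 0 pathway genes passed, and Cish had a log2 fold change of 0.65 ± 0.07 (SE), so the block changed no call. The numbers were not taken to pair the samples, because the deviations of same-numbered libraries from their group means correlated at 0.68, -0.20 and 0.20, and not every library correlated best with its own number, since CBM 2 did so with EBM 3 (0.51). Depth limits Socs3, which had between 2 and 43 counts, and leaves Socs1 at 23 to 147 counts.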

Other observations

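Some genes of the pathway differed more among the libraries of a region than between the regions. They were picked after their values were seen. Csf2rb2 stood at 847, 165 and 338 CPM in CBM 1 to 3 and at 694, 662 and 118 CPM in EBM 1 to 3, and Il10ra, the IL-10 receptor chain, at 58.6, 5.79 and 23.2 CPM and at 27.9, 27.7 and 3.60 CPM. Both were lowest in CBM 2 and EBM 3, as were Socs1 (1.37 and 1.48 CPM) and, in its region, Pim1 (284 and 314 CPM). Epor was highest in the same libraries, at 209 and 161 CPM, as was Tfrc, the transferrin receptor, at 539 and 505 CPM. The summed level of the 6 erythroid markers was 2037, 5434 and 2382 CPM in CBM and 2467, 3422 and 3766 CPM in EBM, and thus also highest in CBM 2 and, within EBM, in EBM 3. Cish showed no difference of this size within a region, at 96.1, 100.2 and 97.0 CPM in CBM and 147.6, 157.3 and 156.4 CPM in EBM. Its small differences put CBM 2 highest in CBM and EBM 2 highest in EBM. Of the mast cell markers, Cpa3 stood at 224, 3.74 and 44.3 CPM in CBM and 210, 180 and 5.20 CPM in EBM, and Fcer1a at 106, 4.26 and 17.6 CPM and at 98.0, 76.5 and 3.47 CPM, lowest in CBM 2 and EBM 3 like Csf2rb2 and Il10ra. The sum of the 5 mast cell markers was also lowest there, at 938 and 1084 CPM, but Cpa3 and Fcer1a made up little of it. In those libraries it was carried by the rest of the list, Mcpt8, Ms4a2 and Gata1. The sum also fell far less than Cpa3 and Fcer1a, from 1592 and 1318 CPM in CBM 1 and CBM 3 and 1441 and 1451 CPM in EBM 1 and EBM 2. The part of erythroid and mast cells in these values was not tested.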
